A study of Rattus norvegicus with 8 samples.

Results

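The interferon-stimulated antiviral genes are a list of 36 rat genes that cells switch on when they sense type I interferon or viral nucleic acid. They were examined in NR8383, a rat alveolar macrophage line that was established from cells washed out of the lung of a normal rat and holds both adherent and floating cells. The genes were found by name: a gene was taken when the name on a non-control array spot equalled a listed name. Of the 36 genes, 33 were found by name among the 36114 distinct gene names of the array, with 41 probes. Of these, 32 could be tested among 15642 genes in all. Ifit1 was on the array and did not reach the signal needed for a test. Herc6, Ifi44l and Xaf1 were not found by name and are treated apart.

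The study compared NR8383 cells at passage 200 (P200) with NR8383 cells at passage 20 (P20), with 4 biological replicates of each passage. Passage number was the labelled difference, and the labels name no treatment, transgene or infection for either group. Cells of both groups were seeded in flasks for 48 h, and total RNA was hybridised to 1-colour Cy3 Agilent rat arrays. Both groups come from the same continuous line. The labels do not say whether the replicates of a passage came from separate thaws or separate flasks of a single culture. The p-values weigh the difference between passages against the spread among the 4 samples of each. That spread may not cover the spread between separate cultures.

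Type I interferon binds a receptor whose kinases, JAK1 and TYK2, activate transcription factors of the STAT family, STAT2 among them. With IRF9 these enter the nucleus and bind the interferon-stimulated response element, a repeat of GAAA-like motifs in the promoters of its targets. The induced proteins include sensors of viral RNA, enzymes that degrade RNA or deplete nucleotides, proteins that trap virus particles, the ubiquitin-like protein ISG15, and factors such as IRF7 that feed back on interferon production. Alveolar macrophages are the resident phagocytes of the air spaces and a source of type I interferon in viral infection of the lung.

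RefSeq promoter sequences of rat assembly GRCr8 were matched by gene symbol for 27 of the 36 genes. The core of the response element, GAAA followed by any 2 bases (NN) and another GAAA, was searched on both strands in the 250 bases before each gene start, with overlapping matches counted apart. It was present in 17 of the 27 promoters (63%), against 1140 of all 33469 promoters (3.41%) and 715 of 21842 protein-coding promoters (3.27%). Of the genes whose signal was lower at P200 by the test described below, 8 of 10 with a promoter entry held it, and of the tested genes that did not pass, 7 of 14 held it. Isg15, Ifit1, Ifit2, Mx2, Oas2, Usp18, Ddx58, Dhx58 and Zbp1 had no entry.

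Below are the 150 bases that end just before the start of 3 of the genes with the largest changes, of Ifi44, which has a match very close to its start, and of the Oas1 genes, of which Oas1i passed the test and Oas1a and Oas1b did not. Each is written 5′ to 3′ on the gene's strand, and capitals mark the letters of the motif or of its reverse complement (TTTC, any 2 bases, TTTC).
Rsad2, chr6:48788121-48788270, minus strand: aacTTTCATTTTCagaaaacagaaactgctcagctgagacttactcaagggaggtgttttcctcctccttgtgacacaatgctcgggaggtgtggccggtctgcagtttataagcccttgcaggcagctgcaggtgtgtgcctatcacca
Irf7, chr1:205800024-205800173, minus strand: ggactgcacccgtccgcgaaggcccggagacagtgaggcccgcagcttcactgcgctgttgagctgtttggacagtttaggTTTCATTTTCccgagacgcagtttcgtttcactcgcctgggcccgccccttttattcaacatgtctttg
Ifit3, chr1:241527176-241527325, plus strand: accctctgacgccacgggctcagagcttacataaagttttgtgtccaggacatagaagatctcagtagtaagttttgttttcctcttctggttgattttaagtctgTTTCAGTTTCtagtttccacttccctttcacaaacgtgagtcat
Ifi44, chr2:243303841-243303990, minus strand: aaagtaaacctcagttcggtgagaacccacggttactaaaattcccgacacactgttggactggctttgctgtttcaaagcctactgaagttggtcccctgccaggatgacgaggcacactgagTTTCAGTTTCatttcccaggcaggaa
Oas1i, chr12:41285076-41285225, plus strand: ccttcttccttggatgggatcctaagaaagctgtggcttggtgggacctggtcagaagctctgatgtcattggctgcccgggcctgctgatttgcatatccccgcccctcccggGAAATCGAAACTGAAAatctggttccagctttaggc
Oas1a, chr12:41330316-41330465, plus strand: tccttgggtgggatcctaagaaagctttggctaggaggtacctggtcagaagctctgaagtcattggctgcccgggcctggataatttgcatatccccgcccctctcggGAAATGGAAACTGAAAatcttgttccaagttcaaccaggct
Oas1b, chr12:41395853-41396002, minus strand: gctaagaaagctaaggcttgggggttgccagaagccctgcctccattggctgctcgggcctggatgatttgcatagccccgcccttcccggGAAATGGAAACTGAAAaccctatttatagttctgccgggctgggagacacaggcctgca
Between the nearest match and the gene start lay 137 bases in Rsad2, 59 in Irf7, 34 in Ifit3, 16 in Ifi44, 20 in Oas1i, 25 in Oas1a and 43 in Oas1b. In the 3 Oas1 promoters a pair of overlapping matches gives a longer run of capitals. A match is a description of letters and not a measured binding site.

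The 8 arrays shared 1 slide and 1 scan, with 0 saturated spots and between 51.0% and 54.5% of non-control spots well above background. Of 12 macrophage markers, 10 were above background on all 8 arrays, while Marco was above it on 1 P200 array and Adgre1 on none. Their summed signal was 161 to 171 times the array's 75th percentile on P200 arrays and 163 to 205 times on P20 arrays, and 3 of them, Cd14, Itgam and Msr1, were lower at P200. Of 8 lung epithelial markers 0 were above background on all arrays and 6 on none, of 5 lymphocyte markers on the array 1 was above it on all 8, and of 5 neutrophil markers 1. Of 5 endothelial markers 3, and of 6 fibroblast markers 2 (Col1a2 and Dcn), were above background on all 8 arrays, and none of either list passed the test. Of 5 dendritic cell markers on the array, 2 were above background on all 8, and Clec9a was lower at P200. The part of cell makeup in the results below was not tested, and in RNA of whole cultures fewer cells that express a gene and less RNA of it per cell cannot be told apart.

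All signals below are log2 of the processed spot signal minus the log2 of the array's 75th percentile, so that 0 is the signal that 75% of the non-control spots lie below, and a probe's level is compared only with the same probe on other arrays. A change is the mean log2 signal at P200 minus that at P20, with the moderated standard error of limma (SE) and n = 4 arrays per group. A gene passed when its p-value, adjusted by Benjamini-Hochberg over all 15642 genes, was under 0.05.

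Of the 32 tested genes, 13 were lower at P200, 0 were higher and 19 did not pass. Over all genes tested, 5.61% were lower and 5.84% were higher, 11.4% in all. The same shares stand against the counts of each role group below. The change was negative for 29 of the 32, against 49.1% of all genes, and the median change was -0.44, against 0.0036 for all genes. The list was chosen with earlier results of these data known, so these contrasts are descriptions and the list was not tested as a set. All P200 arrays lay below all P20 arrays for 14 of the 32, the 13 that passed and Bst2, against 9.79% of all genes, and above them for 0, against 9.66%. The changes ran from -1.57 for Rsad2 to 0.49 for Zbp1. An unadjusted p under 0.05 was reached by 24 of the 32, against 3706 of all 15642 genes. All 32 were well above background on all 8 arrays. When each array was scaled to its median signal, 4 of the 32 were lower (Irf7, Ifit3, Rsad2 and Usp18), against 419 of all 15642 genes. That scaling also moved the share of higher genes among all calls to 63.7%, against 51.0% here.

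**Figure D1:**
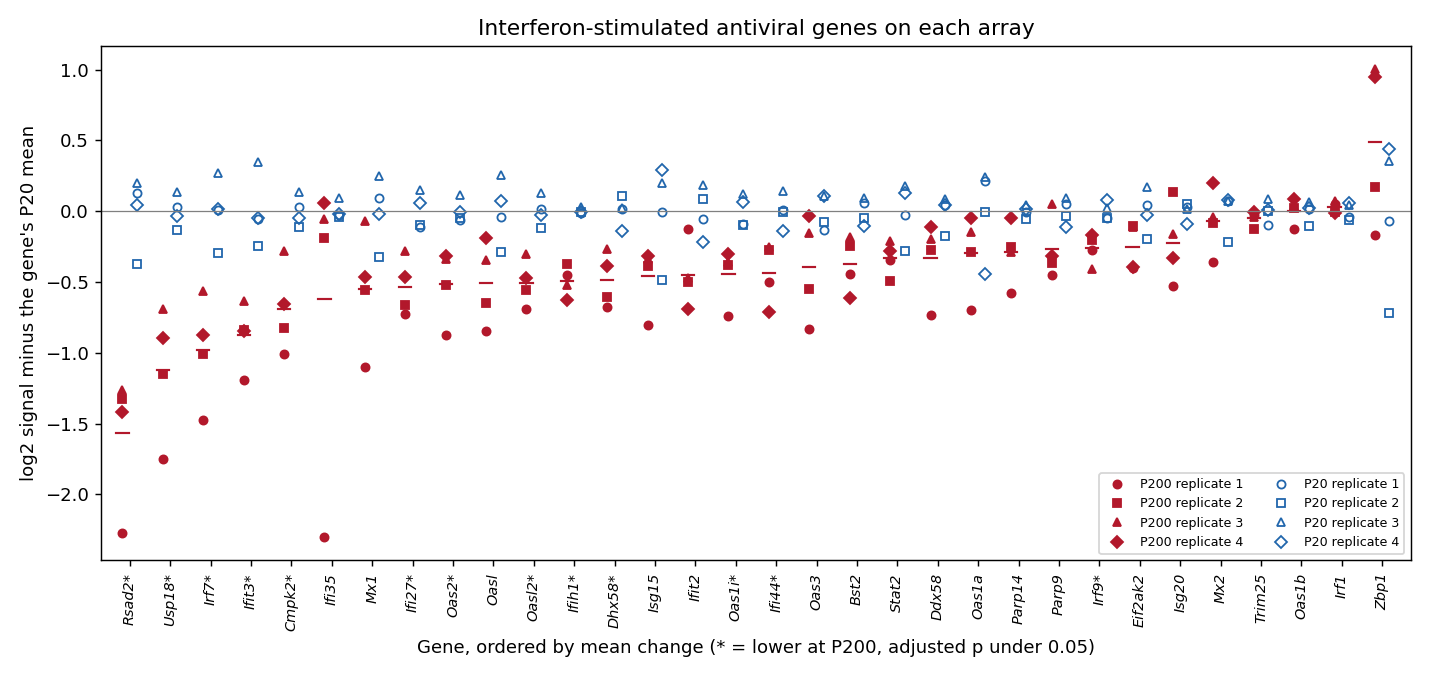
Log2 signal of each of the 32 genes on every array, minus the gene's mean at P20 (vertical axis), with genes ordered by mean change (horizontal axis), P200 arrays as filled red and P20 arrays as open blue symbols, and the P200 mean as a short line. Rsad2 and Usp18 stand at the left with the lowest P200 means, the 13 genes with an asterisk are lower at P200, and P200 replicate 1 (circle) is the lowest P200 array for 24 of the 32 genes.

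The transcription factors were lower for 2 of 4 tested genes, with a median change of -0.30. Irf7, the factor that amplifies type I interferon production, had log2 signals of 1.21, 1.67, 2.12 and 1.81 at P200, against 2.70, 2.39, 2.95 and 2.70 at P20. Every P200 array was below every P20 array, and the change was -0.98 ± 0.19 (SE, adjusted p = 0.0116), 1.97-fold lower at P200. Irf9, the DNA-binding subunit of the complex that carries the type I interferon signal, had log2 signals of 0.33, 0.40, 0.20 and 0.44 at P200, against 0.55, 0.55, 0.63 and 0.68 at P20. The groups did not overlap, but the difference was small, -0.26 ± 0.071 (SE, adjusted p = 0.0496), just inside the threshold. A second Irf9 probe changed by -0.23 (adjusted p = 0.0376 when every probe was tested on its own). In the same probe-level test the first Irf9 probe had an adjusted p of 0.0542.

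Stat2, a STAT factor activated at the type I interferon receptor, had log2 signals of 2.30, 2.15, 2.44 and 2.37 at P200, against 2.62, 2.37, 2.83 and 2.78 at P20. One P20 array lay below the highest P200 array, and the change was -0.33 ± 0.11 (SE, adjusted p = 0.102). Irf1, a factor that also answers interferon gamma, had P200 and P20 signals within the same narrow range, with a change of 0.026 ± 0.057 (SE, adjusted p = 0.836).

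Among the sensors of RNA and other nucleic acids, 2 of 5 were lower, with a median change of -0.33. Ifih1 (MDA5), which detects long double-stranded RNA, had log2 signals of -4.70, -4.62, -4.77 and -4.88 at P200, against -4.26, -4.26, -4.22 and -4.25 at P20. The 4 P20 arrays were nearly level and all stood above the P200 arrays, with a change of -0.49 ± 0.068 (SE, adjusted p = 0.0018). Dhx58 (LGP2), a helicase that modulates the other sensors, had log2 signals of -0.16, -0.087, 0.25 and 0.13 at P200, against 0.53, 0.63, 0.54 and 0.38 at P20. Again the groups did not overlap, and the change was -0.48 ± 0.10 (SE, adjusted p = 0.0173).

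Ddx58 (RIG-I), which detects RNA with a 5′ triphosphate, had log2 signals of -1.01, -0.54, -0.47 and -0.39 at P200, against -0.23, -0.45, -0.19 and -0.23 at P20. Here the lowest P20 array fell among the P200 values, and the change was -0.33 ± 0.14 (SE, adjusted p = 0.181). A second Ddx58 probe was well above background on 1 P200 and 2 P20 arrays and was not tested. Eif2ak2, the kinase PKR that halts translation, had log2 signals of -1.60, -1.30, -1.31 and -1.59 at P200, against -1.15, -1.39, -1.03 and -1.22 at P20. Its groups overlapped through P20 replicate 2, with a change of -0.25 ± 0.11 (SE, adjusted p = 0.194). A second Eif2ak2 probe changed by -0.097 (adjusted p = 0.656 when every probe was tested on its own). Zbp1, a sensor of left-handed nucleic acids, had a change of 0.49 ± 0.33 (SE, adjusted p = 0.448), and its SE was the second largest of the 32 genes after that of Ifi35.

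Active members of the OAS family make 2'-5'-linked oligoadenylates that switch on the ribonuclease RNase L. Of its 7 tested genes 3 were lower, with a median change of -0.45. Oas2 had log2 signals of -3.43, -3.08, -2.89 and -2.87 at P200, against -2.61, -2.60, -2.44 and -2.56 at P20. Oas1i had log2 signals of -0.65, -0.29, -0.27 and -0.21 at P200, against 0.0022, -0.0085, 0.21 and 0.16 at P20. Oasl2 had log2 signals of 0.80, 0.93, 1.18 and 1.01 at P200, against 1.50, 1.36, 1.62 and 1.46 at P20. In each of these 3 the lowest P20 array was above the highest P200 array. The changes were -0.51 ± 0.12 (SE, adjusted p = 0.03) for Oas2, -0.45 ± 0.11 (SE, adjusted p = 0.0315) for Oas1i and -0.51 ± 0.094 (SE, adjusted p = 0.0094) for Oasl2.

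The other 4 OAS genes did not pass. Oasl, an OAS-like protein, had log2 signals of -2.45, -2.26, -1.96 and -1.80 at P200, against -1.65, -1.90, -1.35 and -1.54 at P20. Its groups overlapped by P20 replicate 2 and P200 replicate 4, and the change was -0.51 ± 0.16 (SE, adjusted p = 0.0901). Oas3 had a difference of -0.39 ± 0.17 (SE, adjusted p = 0.205). Oas1a differed by -0.30 ± 0.18 (SE, adjusted p = 0.402) on its brighter probe and by -0.42 on the other (adjusted p = 0.0941 when every probe was tested on its own), and on the brighter probe P20 replicate 4 was at 1.11, inside the P200 range. Oas1b had log2 signals of 3.57, 3.71, 3.73 and 3.77 at P200, against 3.70, 3.59, 3.76 and 3.72 at P20, and the ranges of the passages lay over each other, with a change of 0.0037 ± 0.069 (SE, adjusted p = 0.983). The probes of Oas1i, Oas1a and Oas1b lie within a single stretch of chromosome 12 on the positions that the files give for assembly rn4, at chr12:36770020-36770079, chr12:36815068-36815127 and chr12:36858903-36858962, the Oas1a position being that of its second probe. These are closely related copies, and how far a probe of one binds RNA of another was not tested.

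The IFIT proteins bind viral RNA and block its translation. Ifit3 had log2 signals of -4.19, -3.85, -3.64 and -3.85 at P200, against -3.06, -3.25, -2.65 and -3.05 at P20. Every P200 array was below every P20 array, and the change was -0.88 ± 0.15 (SE, adjusted p = 0.0062), 1.84-fold lower at P200. Ifit2 had log2 signals of -2.21, -2.58, -2.55 and -2.77 at P200, against -2.13, -1.99, -1.89 and -2.30 at P20. Only P200 replicate 1 overlapped the P20 range, and the change was -0.45 ± 0.13 (SE, adjusted p = 0.0674). Ifit1 was well above background on 0 P200 arrays and 2 P20 arrays, so it was not tested, and its log2 signals were -8.16, -7.17, -7.90 and -7.08 at P200 and -5.51, -5.75, -5.73 and -6.16 at P20. No fold is given for it, since 2 P20 arrays were dim as well. The 3 probes lie close together on chromosome 1 of rn4, between chr1:238565078-238565137 (Ifit2) and chr1:238610083-238610142 (Ifit1).

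Other virus-restricting effectors were lower for 2 of 6 tested genes, with a median change of -0.46. Rsad2 (viperin), which makes a chain-terminating nucleotide, had log2 signals of -4.36, -3.42, -3.36 and -3.51 at P200, against -1.96, -2.47, -1.90 and -2.05 at P20. It had the largest fall of all 32 genes, -1.57 ± 0.23 (SE, adjusted p = 0.0026), 2.97-fold lower at P200, with no overlap. A second Rsad2 probe was well above background on 0 P200 and 0 P20 arrays and was not tested. Cmpk2, the kinase that supplies viperin's substrate, had log2 signals of -2.39, -2.21, -1.66 and -2.04 at P200, against -1.36, -1.50, -1.25 and -1.43 at P20. Its groups did not overlap either, and the change was -0.69 ± 0.15 (SE, adjusted p = 0.0168). The probes of both genes lie close together, at chr6:44100787-44100846 and chr6:44139218-44139277 of rn4.

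Bst2 (tetherin), which holds budding virus at the cell surface, had log2 signals of 2.73, 2.92, 2.98 and 2.55 at P200, against 3.23, 3.12, 3.26 and 3.07 at P20. The groups did not overlap, but the change of -0.37 ± 0.10 (SE, adjusted p = 0.0522) missed the threshold. Mx1, a dynamin-like GTPase that blocks viral replication, had log2 signals of 0.12, 0.67, 1.16 and 0.76 at P200, against 1.32, 0.90, 1.47 and 1.21 at P20. It overlapped between passages, with -0.55 ± 0.21 (SE, adjusted p = 0.152). Isg20, an exonuclease that degrades RNA, overlapped between passages, with -0.22 ± 0.13 (SE, adjusted p = 0.366).

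The 2 probes of Mx2 disagreed. The brighter probe, which stands for the gene, had log2 signals of 3.04, 3.31, 3.36 and 3.60 at P200, against 3.47, 3.18, 3.47 and 3.47 at P20, with a change of -0.072 ± 0.12 (SE, adjusted p = 0.79). The other was well above background on 0 P200 arrays and all 4 P20 arrays, at -6.81, -6.03, -5.97 and -6.51 log2 signal at P200 and -5.06, -5.70, -5.32 and -5.02 at P20. With its P200 signals raised to the lowest signal marked well above background on each array, this probe was at least 1.57-fold lower at P200. No test was made of that bound. When every probe was tested on its own, its signals as measured gave an adjusted p of 0.0160. The probe entered that test through P20 alone, the passage where it was brighter.

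In the ISG15 system, 1 of 3 tested genes was lower, with a median change of -0.46. Usp18, the protease that removes ISG15 from proteins and restrains the interferon receptor, had log2 signals of -1.30, -0.71, -0.24 and -0.45 at P200, against 0.48, 0.32, 0.58 and 0.41 at P20. Every P200 array was below 0 and every P20 array above it, with -1.12 ± 0.20 (SE, adjusted p = 0.0084), 2.18-fold lower at P200. Isg15 itself had log2 signals of 0.45, 0.87, 0.91 and 0.94 at P200, against 1.25, 0.76, 1.46 and 1.55 at P20. P20 replicate 2 was below 3 of the P200 arrays, and the change was -0.46 ± 0.18 (SE, adjusted p = 0.161). Trim25, the ligase that modifies RIG-I, had overlapping groups and a change of -0.049 ± 0.062 (SE, adjusted p = 0.707). A second Trim25 probe changed by 0.027 (adjusted p = 0.843 when every probe was tested on its own).

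Among the other induced proteins, 2 of 5 tested genes were lower, with a median change of -0.44. Ifi27, a small membrane protein induced by type I interferon, had log2 signals of 3.04, 3.10, 3.48 and 3.30 at P200, against 3.66, 3.67, 3.92 and 3.82 at P20. Ifi44, a cytoplasmic protein of the same response, had log2 signals of -0.19, 0.040, 0.062 and -0.40 at P200, against 0.32, 0.31, 0.46 and 0.17 at P20. Neither gene overlapped between passages. The changes were -0.53 ± 0.11 (SE, adjusted p = 0.0156) for Ifi27 and -0.44 ± 0.11 (SE, adjusted p = 0.0419) for Ifi44, and a second Ifi44 probe changed by -0.47 (adjusted p = 0.0202 when every probe was tested on its own).

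Parp14 and Parp9, ADP-ribosyltransferases, had differences of -0.29 ± 0.11 (SE, adjusted p = 0.127) and -0.27 ± 0.11 (SE, adjusted p = 0.183), and both overlapped between passages. Ifi35 had log2 signals of -1.56, 0.55, 0.69 and 0.80 at P200, against 0.72, 0.70, 0.83 and 0.72 at P20. The other 3 P200 arrays lay close to the P20 arrays, the change was -0.62 ± 0.47 (SE, adjusted p = 0.505), and without P200 replicate 1 it was -0.061 (adjusted p = 0.683).

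**Figure D2:**
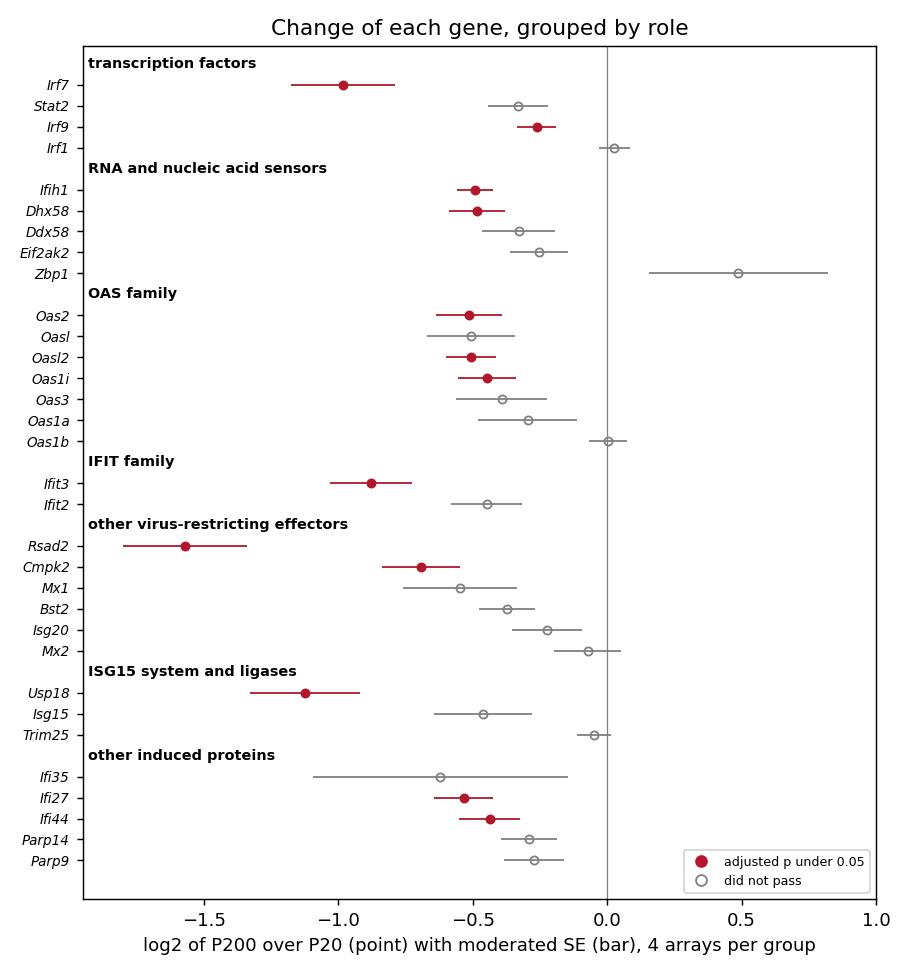
Change of each of the 32 tested genes (log2 of P200 over P20, horizontal axis; bars are the moderated SE, 4 arrays per group), grouped by role, with filled red points for genes that passed and open grey points for those that did not. Each role group holds at least 1 gene that was lower at P200, with 3 in the OAS family, and only Zbp1, Irf1 and Oas1b lie right of 0.

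Herc6, Ifi44l and Xaf1 are named in the probe descriptions, while the gene name of their spots is an Ensembl transcript. They were chosen by that description after the values of the list were seen and are not counted above. Herc6, the main ligase for ISG15 in mice, had log2 signals of -1.32, -0.98, -0.88 and -1.42 at P200, against -0.27, -0.53, -0.039 and -0.33 at P20, a change of -0.86 ± 0.15 (SE), adjusted p = 0.0060. Ifi44l, a paralog of Ifi44, was at -4.05, -3.82, -3.56 and -4.12 at P200 and -2.75, -2.94, -3.002 and -2.91 at P20, a change of -0.99 ± 0.13 (SE), adjusted p = 0.0011. In both the groups were separate. Xaf1, a zinc-finger protein linked to apoptosis, had a difference of -0.40 ± 0.15 (SE), adjusted p = 0.124, and did not pass.

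The calls were not equally stable to the removal of an array. Rsad2, Ifit3, Irf7, Usp18, Ifih1 and Oasl2 passed in all 8 fits that left out 1 array. Cmpk2 and Ifi27 passed in 7 and missed without P20 replicate 3, at adjusted p = 0.0542 and 0.0502. Dhx58 passed in 4 and missed without P200 replicate 2 or without P20 replicate 1, 2 or 3 (adjusted p up to 0.0538). Oas2 missed without the same arrays or P20 replicate 4 (up to 0.0876), and Oas1i without these or P200 replicate 3 (up to 0.0923). Ifi44 missed without P200 replicate 1 or 4 or any P20 array (up to 0.118). Irf9 passed only without P200 replicate 4 and reached an adjusted p of 0.129. The number of lower genes among the 32 was 6 without P20 replicate 3 and 8 without P20 replicate 1, and between 9 and 14 without any other array. Of all 15642 genes, 560 were lower without P20 replicate 3 and 641 without P20 replicate 1.

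Slide position also differed between passages, since P200 replicates 2, 3 and 4 and P20 replicate 1 lay in row 1 of the slide and P200 replicate 1 with P20 replicates 2, 3 and 4 in row 2. Within row 1 the median change of the 32 genes was -0.34 with 28 negative, and within row 2 it was -0.65 with 31 negative, against all-gene medians of 0.039 and -0.030. The 13 lower genes were negative within both rows. This was fixed in advance, since all their P200 arrays lay below all their P20 arrays, and is no check on slide position. The change of Rsad2 was -1.47 within row 1 and -2.23 within row 2, and that of Irf7 -0.83 and -1.47. With the row as a block 11 of the 32 genes were lower, against 583 of all 15642, Irf9 and Ifi44 no longer passing.

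Within a passage the genes varied together from array to array. At P200, replicate 1 had the lowest signal of the 4 arrays for 24 of the 32 genes (75%), while it was lowest for 29.8% of all genes. The median deviation of the 32 genes from their own P200 mean was -0.29 on replicate 1, -0.0087 on replicate 2, 0.17 on replicate 3 and 0.089 on replicate 4, while all genes stood at -0.015, -0.020, -0.014 and 0.056. Replicate 3 was highest for 15 genes (46.9%, against 12.8% of all genes) and replicate 4 for 13 (40.6%, against 46.2%). Only 4 of the 32 genes were above their P200 mean on replicate 1. Without that array, 12 of the 32 genes were lower at P200, against 807 of all 15642, and the median change of the 32 was -0.35.

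At P20 the shared component was smaller and sat on other arrays. P20 replicate 3 was highest for 25 of the 32 genes (78.1%, against 21.8% of all genes) and above the P20 mean for all 32. P20 replicate 2 was lowest for 19 (59.4%, against 23.1%). The median deviations were 0.0030, -0.098, 0.13 and -0.00023 on P20 replicates 1, 2, 3 and 4. The median SD between arrays was 0.230 at P200 and 0.114 at P20 for the 32 genes, while that of all genes was 0.144 and 0.108. A single component held 84.6% of the within-passage variance of the 32 genes at P200 and 73.7% at P20, against 57.1% and 46.6% for all genes. Genes were not scaled to equal spread for these shares, so the most variable weigh most, such as Ifi35 with an SD of 1.12 at P200. With 4 arrays a passage no correlation is given.

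**Figure D3:**
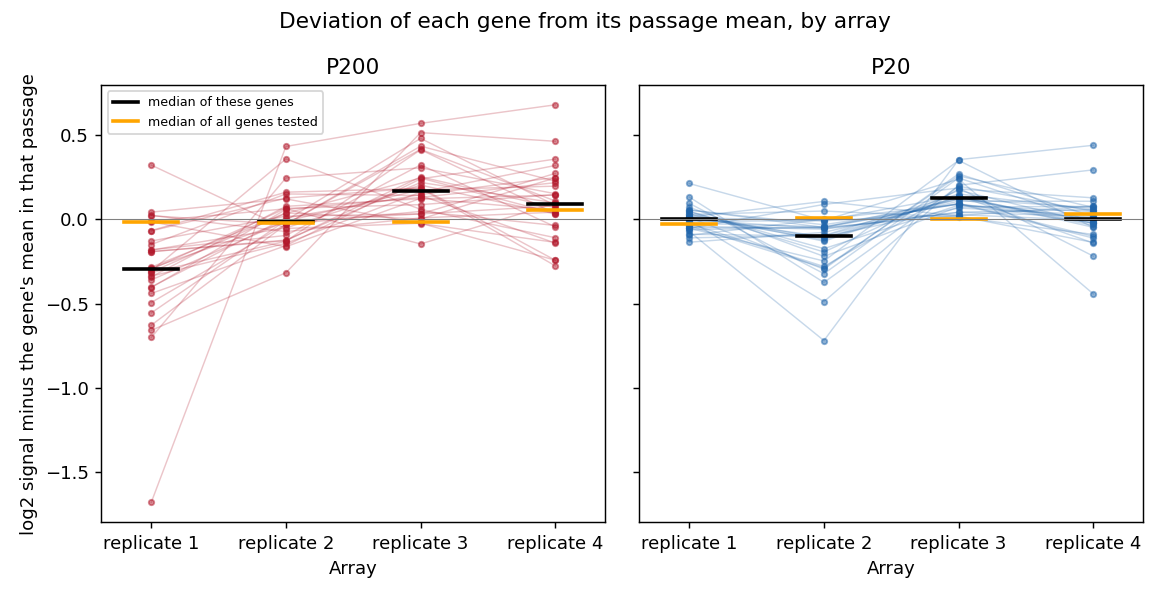
Log2 signal of each of the 32 genes minus its own mean in that passage (vertical axis) on each array (horizontal axis; replicates have no order, and a thin line joins the points of a gene), with P200 at left and P20 at right. Black bars are the median of the 32 genes and orange bars the median of all genes tested: the genes sit low together on P200 replicate 1 (-0.29) and high together on P20 replicate 3 (0.13).

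The count on each array depends on the scaling. When each array was scaled to its median signal, P200 replicate 1 was lowest for 18 genes, P20 replicate 3 was highest for 2 and P20 replicate 1 for 27, and P20 replicate 2 was lowest for 11 and P20 replicate 4 for 20. The deviation of the 32 genes less that of all genes, from which a constant shift of an array drops out, was -0.28 on P200 replicate 1, 0.18 on P200 replicate 3, -0.10 on P20 replicate 2 and 0.12 on P20 replicate 3. Under quantile normalization P200 replicate 1 was lowest for 23 genes and P20 replicate 3 highest for 23.

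Lists of genes around these were examined in the same fit, in which 5.61% of all genes were lower and 5.84% higher. Of 21 listed interferons, receptors and JAK-STAT components, 17 were on the array and 12 could be tested: 0 were lower, 1 was higher and 11 did not pass. Their median change was 0.021, and 2 of the 12 had an unadjusted p under 0.05, against 3706 of all 15642 genes. Ifnk, an interferon known from skin, was the gene that was higher, by 1.05 ± 0.27 (SE), adjusted p = 0.0392, but it was well above background on 4 P200 arrays and only 2 P20 arrays. It entered the test through P200 alone, the passage where it was brighter. Its call and adjusted p carry that selection, and the size of its change is uncertain. Ifna1, Ifna2, Ifnb1, Ifng and Ifnlr1 were above background on 0 arrays, while Ifna4 was above it on all 8, with a difference of -0.0020 ± 0.31 (SE, adjusted p = 0.998).

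Of 24 tested genes of the sensing steps upstream of interferon, 5 were lower, 1 was higher and 18 did not pass. Over all genes, 5.61% were lower and 5.84% higher. The median change of the 24 was -0.096. Tlr3, the endosomal receptor for double-stranded RNA, was at -4.91, -4.28, -3.83 and -4.27 log2 signal at P200 and at -2.56, -2.82, -2.83 and -2.97 at P20, a change of -1.52 ± 0.21 (SE), adjusted p = 0.0016. Tbkbp1, an adaptor of the kinase TBK1, changed by -1.04 ± 0.16 (SE), adjusted p = 0.0032, and Tlr7, the endosomal receptor for single-stranded RNA, by -0.67 ± 0.13 (SE), adjusted p = 0.0128. Tlr4, the receptor for lipopolysaccharide, was higher by 0.40 ± 0.064 (SE), adjusted p = 0.0041.

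Of 17 tested genes of ISG15 conjugation and of attenuators of the response, 3 were lower, 2 were higher and 12 did not pass. Over all genes, 5.61% were lower and 5.84% higher. The median change of the 17 was -0.021. The enzymes that load ISG15 were both lower: Uba7, its activating enzyme, by -0.45 ± 0.098 (SE), adjusted p = 0.0197, and Ube2l6, its conjugating enzyme, by -0.51 ± 0.13 (SE), adjusted p = 0.0353. Tnfaip3 (A20), an inhibitor of inflammatory signalling, changed by -0.55 ± 0.093 (SE), adjusted p = 0.0054. Irf2bp2 and Irf2bp1, partners of the repressor IRF2, were higher by 0.36 ± 0.080 (adjusted p = 0.0224) and 0.30 ± 0.073 (adjusted p = 0.0323).

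Of 55 tested further interferon-stimulated genes outside the list of 36, 12 were lower, 2 were higher and 41 did not pass. Over all genes, 5.61% were lower and 5.84% higher. The median change of the 55 was -0.22, and 46 were negative, against 49.1% of all genes. Plac8, a small cysteine-rich protein, was at -6.38, -5.58, -5.80 and -5.81 log2 signal at P200 and at -2.63, -3.33, -2.38 and -2.82 at P20, a change of -3.10 ± 0.23 (SE), adjusted p = 3.55e-05. It was well above background on only 2 P200 arrays, and entered the test through P20 alone, the passage where it was brighter. Its call, counted among the 12, and its adjusted p carry that selection, and the size of this change is uncertain. The chemokine Ccl5 changed by -1.70 ± 0.18 (SE), adjusted p = 0.000382, and Ifitm2, a membrane protein that blocks virus entry, by -1.10 ± 0.099 (SE), adjusted p = 0.000134. Trim14, an adaptor of antiviral signalling, was higher by 0.56 ± 0.11 (SE), adjusted p = 0.0131, and Apobec1, a cytidine deaminase, by 0.52 ± 0.069 (SE), adjusted p = 0.0015.

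Of these 55 further genes, P200 replicate 1 was lowest for 26, where 29.8% of all genes were lowest. P20 replicate 3 was highest for 24, where 21.8% of all genes were highest. P200 replicate 4 was highest for 27 of them but lowest for 17, against 46.2% and 26.3% of all genes. Of the 12 tested interferons, receptors and JAK-STAT components, P200 replicate 1 was lowest for 0 and highest for 8, where 24.4% of all genes were highest. It was lowest for 9 of the 24 genes of sensing upstream of interferon and for 4 of the 17 of ISG15 conjugation and attenuators, against 29.8% of all genes. These counts were made with the 75th percentile alone.

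**Figure D4:**
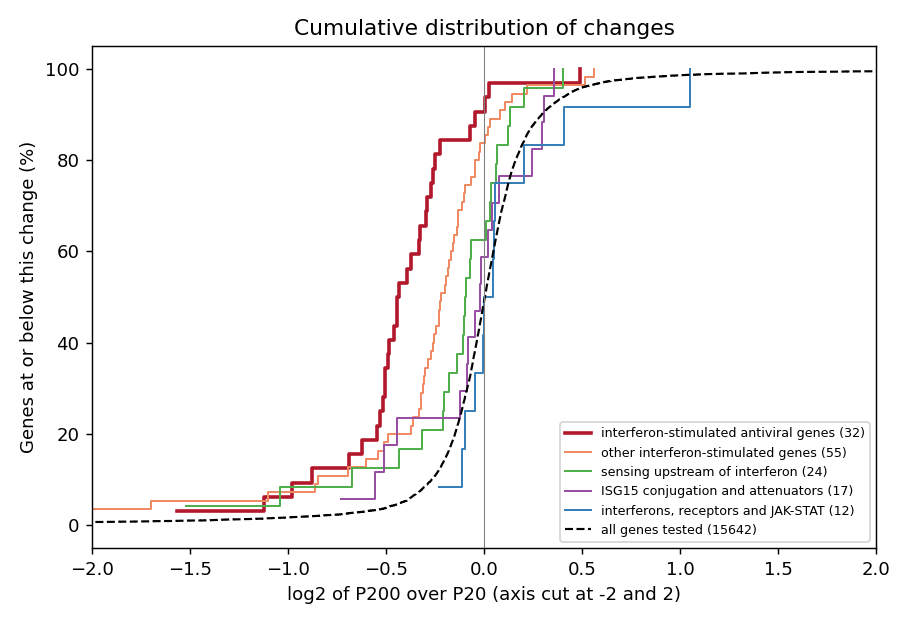
Share of genes at or below each change (vertical axis, percent; horizontal axis, log2 of P200 over P20, drawn from -2 to 2) for the 32 interferon-stimulated antiviral genes, the 4 surrounding lists and all 15642 genes (dashed). The curve of the 32 genes lies left of the others over most of its length, with a median of -0.44, against -0.22 for the further interferon-stimulated genes and 0.0036 for all genes.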

How the data were processed

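RNA of 8 NR8383 cultures, 4 at P200 and 4 at P20, was measured on 1-colour Agilent arrays. The authors deposited linear spot intensity, extracted with Agilent Feature Extraction 11.0.1.1 per the submitters' processing notes, as processed signal, already corrected for background within each array and not normalized between arrays. A deposited value table holds the spot median intensity of the same arrays (100% of values equal), with its P200 columns 1, 2, 3 and 4 holding scanner arrays 2, 3, 4 and 1. Replicate numbers here are those of the scanner files, and the groups come from the labels.

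From these files, log2 processed signal less each array's 75th percentile was computed. Of 62976 spots per array, 4259 controls and outlier spots were left out, spots of a probe were averaged, and 84 of 45598 probes with no usable spot were dropped. Probes entered when marked well above background on every array of either passage (19449 probes), and a gene, named as in the files, was represented by its entering probe with the highest mean log2 signal (15642 genes). The passages were compared, as P200 over P20, with limma 3.58.1 (R 4.3.3) by lmFit and eBayes, two-sided, without covariates, and with Benjamini-Hochberg adjustment. The code was tested on simulated data. Precision is limited by having 4 arrays per passage.

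Full values are given for the genes that passed and for up to 3 others of each role group with the smallest adjusted p; of other lists, for up to 3 genes each way with the largest change. Oas1b and the second Mx2 probe were added after their values were seen. The genes and lists were chosen with earlier results of these data known. Alternatives were the array median, quantile normalization, normexp background correction (offset 50), other probe filters and probe rules, the value table, slide row and replicate number as blocks, leaving out each array, and centring on the genes tested, the last chosen after seeing the data. The values of 1 gene of the surrounding lists, counted in 2 of them, are not reported here.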

Additional observations from a re-analysis of the deposited data

Results flagged for a closer look

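Of 64 sets of 4 arrays (32 genes at each passage), 7 held an array far from the other 3 by Dixon's test. The rate of about 1 in 20 by chance holds for independent sets, and these genes varied together on the same arrays. The share over all genes was not computed, so no excess over chance can be read from the 7. On P200 replicate 1, Rsad2 was at -4.364, with the other P200 arrays between -3.511 and -3.357. Isg15 on the same array was at 0.4506, below 0.8691 to 0.936. Ifi35, also on P200 replicate 1, was at -1.559, below 0.5527 to 0.7997. On P20 replicate 2, Ddx58 was at -0.4478, below -0.2281 to -0.1908, and Mx2 was at 3.178, below 3.47 to 3.475. On P20 replicate 3, Ifih1 was at -4.22, above -4.26 to -4.254, and Ifi35 was at 0.8326, above 0.6972 to 0.7189. Low arrays account for 5 of the 7. P200 replicate 1 and P20 replicate 2 are, with the 75th percentile scaling, the arrays of their passages on which the 32 genes were most often lowest, and P20 replicate 3 the P20 array on which they were most often highest. With the array median, P20 replicate 4 was lowest for 20 genes and P20 replicate 1 highest for 27. No cause was tested.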

How the results depend on the processing

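Over 20 alternatives, the change of a single gene kept its direction and its side of the threshold in 555 of 640 comparisons, lost its call in 56, gained one in 18 and turned sign in 11. All sign turns were among genes that did not pass. Only the 13 genes that passed could lose a call, so the 56 losses all fall on them. Irf9 passed in 7 of the 20 and Ifi44 in 11. The change itself was the same under other probe filters, with every probe tested on its own and with the replicate block. No sign could turn there. Rsad2 and Ifit3 passed in all 20, Irf7 and Usp18 in 19, and 0 of the 32 genes were higher in any. With the array median, 419 genes and 4 of the 32 were lower. With no filter on dim probes, 385 genes were higher, 415 were lower and 4 of the 33 were lower, Ifit1 among them. This setting tests 36114 genes. With the slide row as a block, 583 genes were lower. Leaving out 1 array gave 654 to 845 higher genes, 560 to 858 lower genes, 6 to 14 of the 32 lower and a median change of -0.47 to -0.35. Normexp turned Irf1 to -0.0026 and Oas1b to -0.025. Oas1b was also at -0.025 in the value table, -0.043 with the row block and -0.0043 when centred on the genes tested, and at -0.031 to 0.047 without 1 array. Mx2 ranged from -0.16 to 0.025 without 1 array, and Trim25 was at 0.013 with the array median. The cause was not tested in these cases. The replicate numbers are not a labelled pairing: the deviations of equal-numbered arrays correlated across 15642 genes at 0.025, 0.13, -0.0038 and 0.28. With the replicate block, 774 genes were higher, 722 lower and 14 of the 32 lower, losing Irf9 and Dhx58 and gaining Stat2, Oasl and Bst2. Dim signal limits Ifit1 and the second probes of Mx2, Rsad2 and Ddx58.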
